A study of Homo sapiens with 14 samples.

Results

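RN7SL1, RN7SL2, RMRP, RPPH1, MALAT1 and NEAT1 are 6 noncoding RNAs that act in the cell as RNA, as parts of RNA-protein machines or as scaffolds in the nucleus. They were taken by gene symbol, and they are 6 of the 60876 genes to which the deposited transcripts could be matched. All 6 were among the 15426 genes that passed the filter on low counts and were tested. The RNA came from MDA-MB-231, an established human triple-negative breast cancer cell line, and every group was grown in the same serum-containing medium. Cells received RBI2, a small molecule studied as an inhibitor of ribosome biogenesis, or CX-5461, an inhibitor of RNA polymerase I, each at 5 µM. Each compound had libraries labelled 10, 30 and 120 min, with 2 replicates per label, and the remaining 2 of the 14 libraries are controls to which the labels give no compound. The methods of the study call the controls untreated and its results speak of DMSO, so whether they received the solvent is not known here. The comparison of the compounds asks how these RNAs stood in poly(A)-selected RNA under treatments that both concern ribosome production.

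Libraries were made from poly(A) RNA with a stranded kit. They held between 14112299 and 24849354 estimated reads, and levels are given as CPM, the usual unit for a count relative to the size of its library, after the TMM scaling of edgeR. A CPM is a share of a library, so less RNA per cell and fewer cells cannot be told apart from these values. The deposited file names carry the numbers 02, 10 and 30 where the sample labels say 10, 30 and 120 min, for both compounds, so the times below are those of the labels and are called labels throughout. Control replicate 2 stood apart, with 20.4% of its reads on mitochondrial genes against between 8.05% and 11.2% in the other 13 libraries, and it had the lowest level of RN7SL1 and of RN7SL2 in the series. Among markers of the line VIM, CD44 and AXL were at or above 870 CPM and ESR1, PGR and CDH1 at or below 0.295 CPM in every library. Of 2 genes of luminal epithelium, TFF1 reached at most 0.0725 CPM, whereas the keratin gene KRT19 was present at 59.2 to 84.9 CPM. The leukocyte gene PTPRC and the endothelial gene PECAM1 reached at most 0.124 and 0.406 CPM. The labels do not say whether replicates were separate cultures, so the tests measure the spread between these libraries, which may be technical.

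RN7SL1 and RN7SL2 encode the 7SL RNA, the RNA core of the signal recognition particle (SRP), which holds SRP proteins and brings ribosomes that make secreted or membrane proteins to the endoplasmic reticulum. RMRP is the RNA of RNase MRP, an enzyme of the nucleolus that cuts the precursor of ribosomal RNA, and RPPH1 is the catalytic RNA of RNase P, which trims the 5′ end of precursor transfer RNAs. All 4 are transcribed by RNA polymerase III and carry no poly(A) tail in their mature form. MALAT1 and NEAT1 are long noncoding RNAs of the nucleus made by RNA polymerase II from neighbouring genes. MALAT1 gathers at nuclear speckles, which store splicing factors, and the long form of NEAT1 is the scaffold of paraspeckles. The 3′ ends of MALAT1 and of long NEAT1 are cut next to a transfer RNA-like structure and are held by a triple helix with an encoded stretch of A, whereas the short form of NEAT1 ends in an ordinary poly(A) tail.

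The likeness of RN7SL1 (ENSG00000276168) and RN7SL2 (ENSG00000274012) decides how far the reads of the pair can be separated, and it was counted on their transcripts in GENCODE 44 (GRCh38). The pair, 299 and 300 bases long, differed by 4 substitutions and by 1 unpaired base, so that 295 of 300 aligned positions were identical. Of the 269 words of 31 bases in RN7SL1, 196 (72.9%) also occurred in RN7SL2, and 239 occurred in some other RN7SL gene of GENCODE 44. The reads of the pair were therefore also summed. The other 660 RN7SL genes, nearly all of them copies named as pseudogenes, held 2080 estimated reads over all 14 libraries against 9614 on RN7SL1 and RN7SL2. RN7SL1 lies on the opposite strand to the protein-coding gene RPS29, and RN7SL2 lies on the same strand as the noncoding gene ENSG00000282885, which held between 4 and 19 reads in a library.

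In outline, all 6 RNAs were higher with RBI2 than with CX-5461 in the libraries labelled 120 min, NEAT1 by less than the fold limit, and the 7SL pair was higher over all labels together. A gene passed with a log2 fold change of at least 1 in size and an adjusted p under 0.05, by the quasi-likelihood test of edgeR with Benjamini-Hochberg adjustment over all 15426 genes. Between RBI2 and CX-5461 labelled 120 min, 5 of the 6 members passed, all higher with RBI2, where 1.67% of all tested genes passed in either direction. Between RBI2 labelled 120 min and the control 3 of 6 passed (RN7SL1, RN7SL2 and RMRP), all higher, where 1.82% of all tested genes passed. Over all labels RN7SL1 and RN7SL2 passed, both higher with RBI2, where 0.927% of all tested genes passed. DESeq2 called 4, 3 and 2 members in these comparisons (0.992%, 1.08% and 1.01% of all genes). The median log2 fold change of the 6 members was 2.38, 2.12 and 1.30 in these comparisons, and that of all tested genes was 0.01, 0.01 and 0.00. RN7SL1 and RN7SL2 count as 2 members in these counts and medians, although their reads can be separated only in part.

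In the other 7 comparisons 0 members passed in edgeR. For RBI2 against the control this held with the label 10 min, where 0.0778% of all genes passed, and with the label 30 min, where 0.0389% passed. At an unadjusted p under 0.05 there were 3 members and 1 member (12.9% and 25.8% of all genes), and DESeq2 called 1 at each label (0.233% and 0.182% of all genes). For CX-5461 against the control 0 members passed with the labels 10, 30 and 120 min, where 1.64%, 0% and 0.0454% of all genes passed, an unadjusted p was under 0.05 for 1, 0 and 2 members (22.5%, 22.9% and 12.4% of all genes), and DESeq2 called 0 members (1.69%, 0.0972% and 0.0648% of all genes). Between the compounds labelled 10 min and 30 min, 1.04% and 0.0130% of all genes passed, 4 members and 1 member had an unadjusted p under 0.05 (14.2% and 7.79% of all genes), and DESeq2 called 1 and 0 (0.972% and 0.0778%). The shares against the control depended on which control was kept, and none rose without control replicate 2 (given below with the 7SL pair). The shares rest on control replicate 2 alone, the library that stood apart, in a fit without control replicate 1. Without it they were 4.45% and 6.59% for RBI2 labelled 10 and 30 min and 8.33%, 7.03% and 3.76% for CX-5461 labelled 10, 30 and 120 min.

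**Figure D1:**
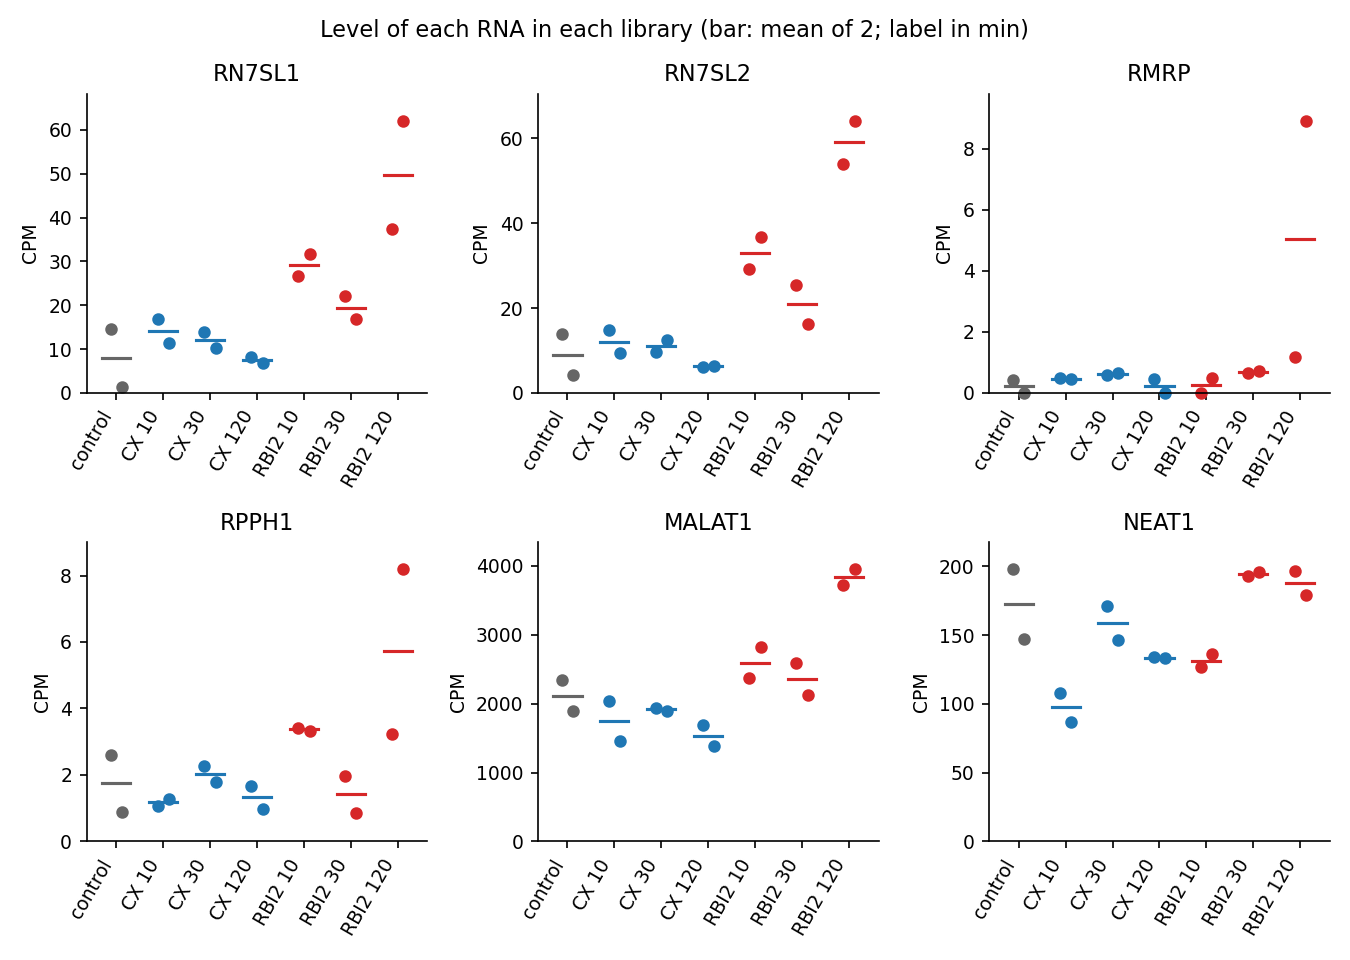
Level of each of the 6 RNAs in each of the 14 libraries, in CPM on linear axes from 0, with a point per library and a bar at the mean of 2; the x axis gives the compound (CX stands for CX-5461) and the label in min. RN7SL1, RN7SL2 and MALAT1 were highest in the libraries of RBI2 labelled 120 min, RMRP and RPPH1 were highest in replicate 2 of that group, and NEAT1 varied least in proportion.

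The 7SL pair was higher in every RBI2 library than in any other library of the series. The summed level of RN7SL1 and RN7SL2 was 28.3 and 5.59 CPM in the controls. It was 31.6 and 20.7 CPM with CX-5461 labelled 10 min, 23.6 and 22.6 labelled 30 min, and 14.4 and 13.2 labelled 120 min. With RBI2 it was 56.0 and 68.5 CPM labelled 10 min, 47.6 and 33.1 labelled 30 min, and 91.3 and 126 labelled 120 min. The lowest RBI2 library, at 33.1 CPM, was thus just above the highest of the other libraries, at 31.6 CPM. Among all tested genes, 1.66% had all 6 RBI2 libraries above all 6 CX-5461 libraries, 0.681% had them all below, and 0.882% had them above all 8 other libraries. Ordered by mean, the groups ran from CX-5461 labelled 120 min (13.8 ± 0.900 CPM, SD, n = 2) and the control (16.9 ± 16) to RBI2 labelled 10 min (62.2 ± 8.78) and 120 min (109 ± 24.7). The control pair differed so widely that its place among the CX-5461 groups could not be set.

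RN7SL1 and RN7SL2 gave like values when taken singly. Reads that fit both are divided between them by estimate, so neither is independent support for the other. RN7SL1 had 233 and 18 estimated reads in the controls, between 119 and 313 with CX-5461 and between 255 and 857 with RBI2. RN7SL2 had 222 and 52 in the controls, between 108 and 273 with CX-5461 and between 246 and 915 with RBI2. RN7SL2 held between 41.0% and 59.1% of the reads of the pair in 13 libraries and 74.3% in control replicate 2, where the pair had 70 reads in all. In CPM, each RBI2 library exceeded each CX-5461 library for RN7SL2, whereas for RN7SL1 the lowest RBI2 library (16.8 CPM) and the highest CX-5461 library (16.9 CPM) overlapped.

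With RBI2 labelled 120 min the sum was higher than in the control by 2.65 on the log2 scale (SE 0.51, adjusted p = 0.0125, edgeR) and higher than with CX-5461 of the same label by 2.98 (SE 0.51, adjusted p = 0.00878). Over all labels it was higher with RBI2 than with CX-5461 by 1.67 (SE 0.31, adjusted p = 0.00797), a fold change of 3.19. For the label 10 min the difference between the compounds was 1.25 (SE 0.48, adjusted p = 0.251), and for the label 30 min it was 0.81 (SE 0.49, adjusted p = 0.793). The former passed in edgeR without the filter on low counts, without either control (1.25 and 1.23, adjusted p = 0.00839 and 0.0082) and with only the libraries compared (1.24, adjusted p = 0.0122), although the controls are not part of that comparison, and it had an adjusted p of up to 0.754 without a library of that label. The difference over all labels kept its call without any one library, with adjusted p between 0.00924 and 0.0299. That from the control at 120 min lost it without RBI2 replicate 1 or 2 (adjusted p = 0.0691 and 0.0721), and that from CX-5461 at 120 min lost it without CX-5461 replicate 2 or RBI2 replicate 1 or 2 (0.0744, 0.0539 and 0.0751), the remaining library being assumed to vary like the other groups. With only the libraries compared, that from the control at 120 min also lost its call (2.67, adjusted p = 0.322), where no gene passed.

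Comparisons of the 7SL pair with the control rest on which control is kept, and those of RBI2 labelled 10 and 30 min also on the filter on low counts. Against both controls the sum differed with RBI2 labelled 10 and 30 min by 1.85 and 1.23 on the log2 scale (adjusted p = 0.212 and 0.164 from edgeR) and with CX-5461 labelled 10, 30 and 120 min by 0.60, 0.42 and -0.32 (adjusted p = 0.467, 0.605 and 0.811). Without control replicate 1, leaving the control at 5.59 CPM, these became 3.47 and 2.85 for RBI2 and 2.22, 2.04 and 1.30 for CX-5461, and all 5 passed, in a fit where 3.76% to 8.33% of all genes passed in these comparisons. Without control replicate 2 they were 1.12 and 0.52 for RBI2 and -0.11, -0.28 and -1.05 for CX-5461, and none of the 5 passed, where 0.0740%, 0.0123%, 0.950%, 0% and 0.0432% of all genes did. The direction of CX-5461 against the control thus depended on the choice of control, while the RBI2 values were positive with either. With RBI2 labelled 120 min the difference was 4.27 without control replicate 1 and 1.93 without control replicate 2, and it passed in both cases (8.21% and 1.01% of all genes did).

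Of the 8 genes for proteins of the SRP, which holds 7SL RNA, and of its receptor, 0 passed in edgeR or DESeq2 in any of the 10 comparisons. At an unadjusted p under 0.05 there were 2, 4 and 5 of them with RBI2 labelled 10, 30 and 120 min against the control (12.9%, 25.8% and 35.9% of all tested genes). For CX-5461 against the control there were 0, 1 and 1 (22.5%, 22.9% and 12.4%). Between the compounds there were 0, 0 and 2 at these labels (14.2%, 7.79% and 31.6%) and 3 over all labels (27.2%). With RBI2 labelled 120 min their median log2 fold change was -0.23 against the control and -0.13 against CX-5461. The largest difference of any gene of this list in any comparison was -0.49, for SRP54, which encodes the GTPase that binds signal peptides.

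RMRP (ENSG00000277027, chr9:35657754-35658017, minus strand, 264 bases) was near the detection limit in 13 libraries and was clearly present in the remaining library. Its estimated reads were 7 and 0 in the controls, 9 and 8, 9 and 10, and 11 and 0 with CX-5461 labelled 10, 30 and 120 min, 0 and 8 and then 14 and 11 with RBI2 labelled 10 and 30 min, and 20 and 123 with RBI2 labelled 120 min. The 3 libraries at 0 allow up to 0.240 CPM in the control, 0.174 with CX-5461 labelled 120 min and 0.182 with RBI2 labelled 10 min, taking 3 reads as the limit for a count of 0. In CPM the 2 libraries of RBI2 labelled 120 min had 1.18 and 8.91, and the other 12 had at most 0.726. Both therefore lay above all others, and they lay far apart from each other. No share of all tested genes with such a separation is at hand. The fitted difference was 4.35 on the log2 scale from the control (SE 1.28, adjusted p = 0.042 from edgeR) and 4.28 from CX-5461 (SE 1.20, adjusted p = 0.0371). Over all labels it was 1.53 (SE 0.94, adjusted p = 0.314). Without RBI2 replicate 2 the 120 min values were 2.28 and 2.21 (adjusted p = 0.319 and 0.36), and the calls were lost without 9 and 10 of the 14 libraries in turn (adjusted p between 0.0531 and 0.36 in these cases), with a replicate block (0.0611 and 0.0588), and in DESeq2, which gave no adjusted p.

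RPPH1 (ENSG00000277209, chr14:20343075-20343407, minus strand, 333 bases) had between 11 and 113 reads in a library. Its level was 2.61 and 0.879 CPM in the controls, 1.08 and 1.28 with CX-5461 labelled 10 min, 2.26 and 1.78 labelled 30 min, and 1.67 and 0.985 labelled 120 min. With RBI2 it was 3.40 and 3.34 CPM labelled 10 min, 1.96 and 0.858 labelled 30 min, and 3.25 and 8.19 labelled 120 min. RBI2 labelled 10 and 120 min thus lay above every library of the control and of CX-5461. Of RBI2 labelled 30 min, 1 library lay among the control and CX-5461 libraries and the other was the lowest of all 14. Over all labels the compounds therefore overlapped, and no share of all tested genes is at hand for the separation at 10 and 120 min. With RBI2 labelled 120 min RPPH1 was higher than with CX-5461 by 2.06 on the log2 scale (SE 0.54, adjusted p = 0.0284 from edgeR), and its difference from the control of 1.66 (SE 0.54) had an adjusted p of 0.0561. The latter passed in DESeq2 (1.69, adjusted p = 0.0326), without the filter on low counts and without control replicate 1 (2.67, adjusted p = 0.00942 from edgeR), and it was as low as 0.85 (adjusted p = 0.36) without RBI2 replicate 2. The call against CX-5461 was lost without either library of either group (adjusted p between 0.0569 and 0.222), and RBI2 replicate 2 carried the largest part, the difference being 1.25 without it. Over all labels the difference was 1.11 (SE 0.41, adjusted p = 0.11), and it passed at 1.36 without RBI2 labelled 30 min replicate 2 (adjusted p = 0.0486). The same-strand noncoding gene ENSG00000259001, whose exon covers RPPH1, held at most 4 reads in a library.

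RNase P and RNase MRP share most of their proteins, and of the 11 protein genes of the list 0 passed in edgeR or DESeq2 in any of the 10 comparisons. At an unadjusted p under 0.05 there were between 0 and 3 of them, where between 7.79% and 35.9% of all tested genes had one. Their median log2 fold change with RBI2 labelled 120 min was -0.03 against the control and 0.06 against CX-5461, and the largest difference in any comparison was 0.62, for RPP25L, with CX-5461 labelled 30 min against the control.

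**Figure D2:**
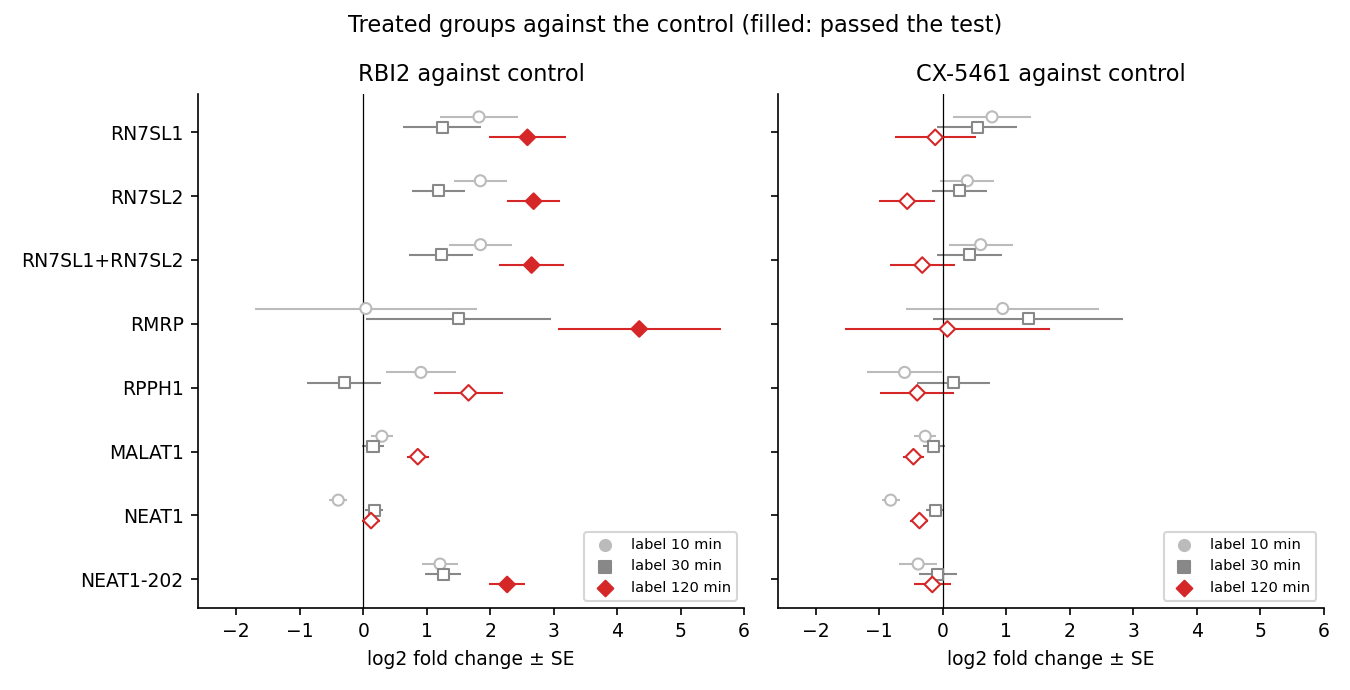
Log2 fold change of each RNA against the control, with its standard error, for RBI2 (left) and CX-5461 (right) and for the labels 10, 30 and 120 min; filled symbols passed the test. With RBI2 labelled 120 min RN7SL1, RN7SL2, their sum, RMRP and the long NEAT1 transcript passed, and no symbol of CX-5461 is filled.

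MALAT1 (ENSG00000251562, chr11:65497640-65508073, plus strand) was the most abundant of the 6 RNAs in every group, also per length. In TPM, the unit of Salmon that divides by effective length, its group means lay between 877 and 2089, those of the summed 7SL pair between 56.3 and 477, and those of NEAT1 between 73.2 and 139.5. RPPH1 and RMRP had group means of at most 18.6 and 21.1 TPM. The 7SL pair was above NEAT1 in TPM in the 3 RBI2 groups and with CX-5461 labelled 10 min, and below it in the other 3 groups.

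MALAT1 stood at 2344 and 1888 CPM in the controls. With CX-5461 it was 2035 and 1459 labelled 10 min, 1936 and 1896 labelled 30 min, and 1688 and 1383 labelled 120 min. With RBI2 it was 2371 and 2820 labelled 10 min, 2589 and 2120 labelled 30 min, and 3725 and 3953 labelled 120 min. In CPM every RBI2 library was above every CX-5461 library, as for 1.66% of all tested genes. The controls lay across the gap between them. RBI2 labelled 120 min was above all the rest, for which no share of all tested genes is at hand. In TPM the compounds overlapped, with the lowest RBI2 library at 1171 and the highest CX-5461 library at 1223. Between the compounds labelled 120 min MALAT1 was 1.32 higher with RBI2 on the log2 scale (SE 0.17, adjusted p = 0.0067 from edgeR), a fold change of 2.50. Over all labels the difference was 0.74 (SE 0.16, adjusted p = 0.0172), and RBI2 labelled 120 min differed from the control by 0.86 (SE 0.17, adjusted p = 0.0139), both under the fold limit. The latter passed, at 1.01, without control replicate 1 (adjusted p = 0.00222) and was 0.71 without control replicate 2. The call between the compounds at 120 min was lost without CX-5461 replicate 2 or RBI2 replicate 1 or 2 (adjusted p = 0.0517, 0.0508 and 0.0677).

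MALAT1 against the control depended on whether transcript length was taken into account, in direction with RBI2 at the earlier labels and in size with RBI2 at 120 min and with CX-5461. RBI2 labelled 10 and 30 min differed from the control by 0.29 and 0.15 on the log2 scale in the counts and by -0.42 and -0.60 with an offset for the effective length, none of which passed. With the offset the difference of RBI2 labelled 120 min from the control was 0.21 (adjusted p = 0.549 from edgeR) in place of 0.86, and that between the compounds was 1.24 for the label 120 min (adjusted p = 0.0196) and 0.55 over all labels (adjusted p = 0.0761). CX-5461 labelled 10, 30 and 120 min was below the control with either, at -0.28, -0.14 and -0.46 in the counts and -0.73, -0.66 and -1.03 with the offset, none of which passed. In TPM the control mean was 1534 ± 23.5 (SD, n = 2) against 1360 ± 107 and 1265 ± 133 with RBI2 labelled 10 and 30 min, whereas RBI2 labelled 120 min had 2089 ± 402.

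The reads of MALAT1 were spread over 15 of the 16 transcripts in the files. The 5340-base MALAT1-214 held between 76.0% and 88.5% of them in a library. The 8708-base MALAT1-202, the longest, held 7.76% and 4.02% in the controls, between 5.76% and 18.0% with CX-5461 (median 8.67%) and between 12.2% and 18.4% with RBI2 (median 14.8%). All RBI2 libraries were above both controls, and they overlapped CX-5461 through 1 library, CX-5461 labelled 120 min replicate 2, since the next highest CX-5461 library had 9.39%. These shares are estimates by Salmon for transcripts that overlap each other.

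Of the 14 genes for proteins of nuclear speckles, 0 passed in edgeR or DESeq2 in any of the 10 comparisons. Between 2 and 8 had an unadjusted p under 0.05, where between 7.79% and 35.9% of all tested genes did. There were 8 with RBI2 labelled 120 min both against the control and against CX-5461, where the shares of all tested genes were 35.9% and 31.6%. Their median log2 fold change with RBI2 labelled 120 min was -0.16 against the control and -0.12 against CX-5461.

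NEAT1 (ENSG00000245532, chr11:65422774-65445540, plus strand) did not pass the fold limit as a gene in any comparison. Its long transcript had higher values with RBI2, but it was chosen after its shares in these libraries were seen. The gene as a whole had 198 and 147 CPM in the controls. It had 108 and 87.1 CPM with CX-5461 labelled 10 min, 171 and 147 labelled 30 min, and 134 and 134 labelled 120 min. With RBI2 it had 127 and 136 CPM labelled 10 min, 193 and 196 labelled 30 min, and 197 and 179 labelled 120 min. Within each label both RBI2 libraries were above both CX-5461 libraries, and for both compounds the label 10 min was the lowest of the compound. No share of all tested genes with that order is at hand, and over all labels the compounds overlapped. The difference between the compounds over all labels was 0.41 on the log2 scale (SE 0.07, adjusted p = 0.00423 from edgeR), and 0.49 for the label 120 min (SE 0.14, adjusted p = 0.041), both under the fold limit. CX-5461 labelled 10 min was below the control by 0.82 (SE 0.14, adjusted p = 0.00889), which was also under the limit and passed it, at -1.02, without control replicate 2 (adjusted p = 0.000826), while without CX-5461 replicate 2 its adjusted p was 0.136.

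The files hold 9 transcripts of NEAT1. NEAT1-202 (ENST00000501122.2, 22743 bases, a single exon) is the long paraspeckle form, and NEAT1-207 and NEAT1-209, of 3300 and 3301 bases, held most of the reads of the gene. The 3′ ends of MALAT1 and of NEAT1-202 are shown because they lack a poly(A) tail and yet were counted in poly(A) RNA. Each of the following runs of 60 bases (GRCh38, plus strand, from the GENCODE 44 transcripts) ends just before an annotated small RNA, and capitals mark the end that both share, 11 bases long:

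MALAT1, chr11:65506057-65506116: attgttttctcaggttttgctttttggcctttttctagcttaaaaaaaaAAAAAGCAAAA

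NEAT1-202, chr11:65445481-65445540: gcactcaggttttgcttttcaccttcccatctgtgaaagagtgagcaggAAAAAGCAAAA

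The small RNAs that follow, ENSG00000274072 at chr11:65506117-65506173 and ENSG00000275948 at chr11:65445541-65445598, are the transfer RNA-like pieces that the cut releases. NEAT1-202 also has stretches of A inside it, 5 of them of 10 or more. The longest, of 22, covers positions 18046 to 18067 of the transcript, and the region around it, chr11:65440828-65440879, is shown with the run in capitals:

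NEAT1-202, longest run of A: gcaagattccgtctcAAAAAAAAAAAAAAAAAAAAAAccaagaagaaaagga

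A run as long occurred in 0.590% of the 214947 transcripts of the files whose sequence was at hand. The longest runs in NEAT1-207 and NEAT1-209 were of 5, in RN7SL1 and RN7SL2 of 4, in RMRP of 3 and in RPPH1 of 2. The runs are a description of the sequence, and their part in the counts was not tested.

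NEAT1-202 was chosen for a closer look after the shares of the transcripts were seen. It held 4.12% and 2.53% of the NEAT1 reads in the controls and between 3.13% and 5.02% in the CX-5461 libraries. With RBI2 it held 9.08% and 12% labelled 10 min, 7.27% and 7.56% labelled 30 min, and 16% and 14.8% labelled 120 min. All 6 RBI2 libraries were above all 8 others. In levels 0.882% of all tested genes had such a separation, and no such figure is at hand for transcript shares. The mean share was 7.0 percentage points higher with RBI2 than with CX-5461, given without a test because these shares prompted the choice. In CPM, NEAT1-202 had 8.14 and 3.67 in the controls, between 4.39 and 6.04 with CX-5461, and 11.5 and 16.4, 14 and 14.8, and 31.4 and 26.5 with RBI2 labelled 10, 30 and 120 min. In reads it had between 46 and 135 in the control and CX-5461 libraries and between 189 and 533 in the RBI2 libraries.

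The p-values of NEAT1-202 below come from the same libraries as the shares and are no independent support for the choice. Fitted as a row of its own in place of the gene, NEAT1-202 was higher with RBI2 than with CX-5461 over all labels by 1.83 on the log2 scale (SE 0.17, adjusted p = 0.000609 from edgeR), a fold change of 3.54, while the other NEAT1 transcripts together differed by 0.30 (SE 0.06, adjusted p = 0.0127). The difference between the compounds was 1.60 for the label 10 min (adjusted p = 0.0118), 1.34 for 30 min (adjusted p = 0.354) and 2.43 for 120 min (adjusted p = 0.00499). That for 30 min passed in DESeq2 (adjusted p = 0.0233) and, in edgeR, with only the libraries compared (adjusted p = 0.0278) and without control replicate 1 or 2 (adjusted p = 0.022 and 0.0183). RBI2 labelled 120 min was 2.27 above the control (SE 0.28, adjusted p = 0.00405), and the other transcripts were at -0.07. RBI2 labelled 10 and 30 min was at 1.21 and 1.26 from the control (adjusted p = 0.155 and 0.106) and did not pass. These values were 1.91 and 1.96 without control replicate 1 and 0.75 and 0.82 without control replicate 2, and the former pair passed, as did both in DESeq2 with all libraries (adjusted p = 0.0192 and 0.00603). CX-5461 labelled 10, 30 and 120 min was at -0.39, -0.08 and -0.16 from the control, none of which passed. The calls over all labels and for both comparisons of 120 min held without any one library, but that against the control was lost with only the libraries compared (2.27, adjusted p = 0.321), and that for 10 min was lost without CX-5461 replicate 1 or 2 or RBI2 replicate 2 (adjusted p = 0.12, 0.133 and 0.131).

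**Figure D3:**
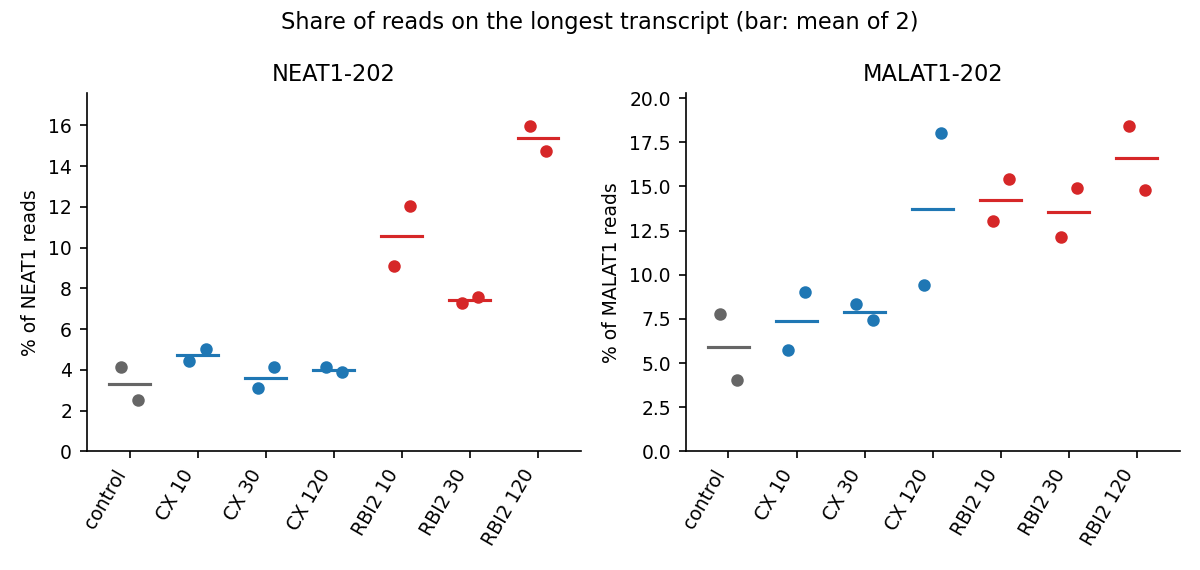
Percentage of the NEAT1 reads on NEAT1-202 (left) and of the MALAT1 reads on MALAT1-202 (right) in each library, with a point per library and a bar at the mean of 2; both axes start at 0. All 6 RBI2 libraries lie at or above 7.27% for NEAT1-202, above the highest of the others at 5.02%, whereas for MALAT1-202 a CX-5461 library labelled 120 min reaches 18.0%.

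Among 14 genes for paraspeckle proteins, many of which bind NEAT1, 0 passed in edgeR or DESeq2 in any of the 10 comparisons. Between 0 and 9 had an unadjusted p under 0.05, where between 7.79% and 35.9% of all tested genes did. The 9 were with RBI2 labelled 120 min against the control, where the share of all tested genes was 35.9%. Their median log2 fold change with RBI2 labelled 120 min was -0.11 against the control and -0.05 against CX-5461. The largest difference was -0.65, for NUDT21, which encodes a subunit of the cleavage factor that acts at poly(A) sites and which was lower with RBI2 than with CX-5461 labelled 120 min, without passing.

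**Figure D4:**
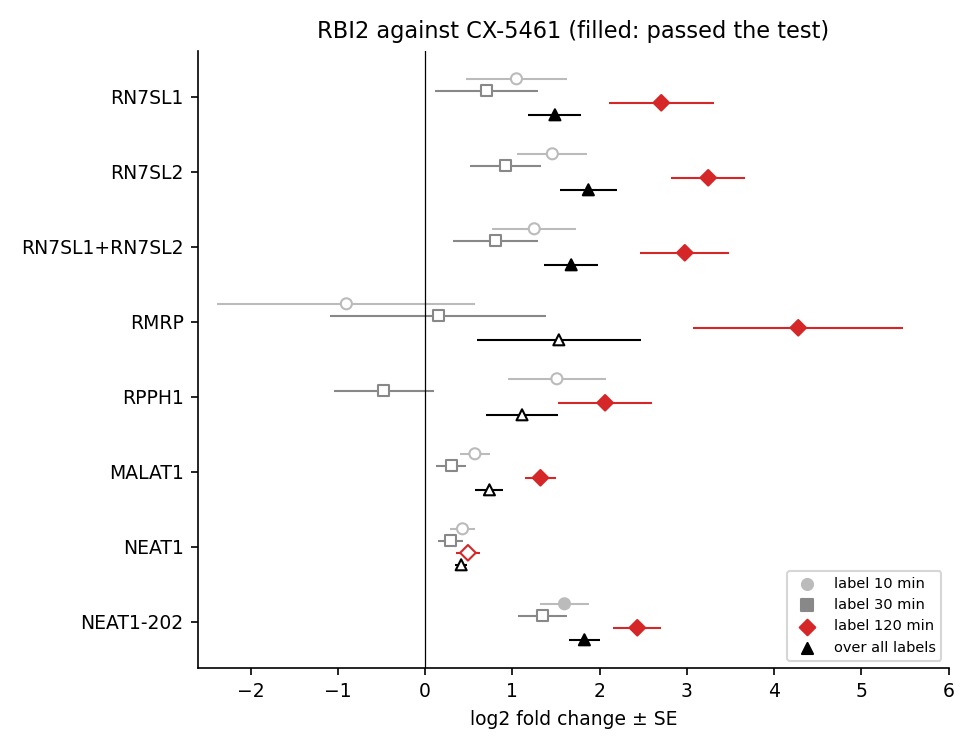
Log2 fold change between RBI2 and CX-5461, with its standard error, for each label and over all labels; positive values are higher with RBI2 and filled symbols passed the test. For the label 120 min all rows but NEAT1 as a whole passed, and over all labels the 7SL rows and NEAT1-202 passed.

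Whether the difference between the compounds itself changed with the label was tested as an interaction. None of the 6 members passed in edgeR, between 30 and 10 min (where 0.499% of all genes passed), between 120 and 10 min (1.35%) or between 120 and 30 min (0%). An unadjusted p was under 0.05 for 1, 3 and 5 members (7.62%, 23.2% and 15.2% of all genes), and DESeq2 called 0, 1 and 2 (0.564%, 1.36% and 0.136%). The largest such change in the 7SL sum, between 120 and 30 min, was 2.17 on the log2 scale (SE 0.69, adjusted p = 0.207). A larger difference at 120 min than at the other labels was thus seen in the values of the members but did not pass.

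Other RNAs that end without a tail were followed beside the members in a list of 95 genes, 67 of them replication-dependent histone genes and 28 of them small RNAs such as RN7SK and small nucleolar RNAs. Of the 27 tested, 7 passed as higher and 0 as lower with RBI2 labelled 120 min against the control, and 6 and 0 against CX-5461, with median log2 fold changes of 0.55 and 0.67, where 1.82% and 1.67% of all tested genes passed. DESeq2 called 3 and 4. Over all labels 3 passed as higher and 1, H4C3, as lower with RBI2 than with CX-5461, where 0.927% of all tested genes passed, and DESeq2 called 7. The count of 1 lower stayed when either control was left out, and likewise replicate 2 of CX-5461 or replicate 1 of RBI2 with the label 120 min, and it was 0 without any other library. It was also 0 with a replicate block and with an offset for transcript length, each with 3 higher. The count of higher over all labels ranged from 2 to 7 without any one library, with 7 without CX-5461 labelled 30 min replicate 2. The counts for 120 min rested on single libraries, as did those of all tested genes. With a library left out 32 genes of the list were tested in place of 27, except without RBI2 labelled 120 min replicate 2, where 27 were. For 120 min an offset for transcript length gave 3 higher against the control and 5 against CX-5461. With only the libraries compared there were 0 and 8. Against the control there were 0 without RBI2 replicate 2, 1 without RBI2 replicate 1, and 12 and 4 without control replicate 1 and 2. Against CX-5461 there were 0 without CX-5461 replicate 2 or RBI2 replicate 2, 2 without RBI2 replicate 1 and 10 without either control. RN7SK, the RNA that holds the elongation factor P-TEFb inactive, was higher by 2.34 (adjusted p = 0.012) and 2.89 (adjusted p = 0.00692), and its level was 8.85 and 21.7 CPM with RBI2 labelled 120 min against 3.17 and 2.80 in the controls. SNORD3A, the U3 small nucleolar RNA, was 3.91 above the control (adjusted p = 0.0287 from edgeR), at 1.83 and 3.55 CPM against 0.311 and 0. The histone gene H4C1 was higher by 3.12 (adjusted p = 0.0108) and 2.71 (adjusted p = 0.0115). H4C3, another histone H4 gene, was higher with RBI2 labelled 120 min than in the control by 1.09 (adjusted p = 0.0299), but lower with RBI2 than with CX-5461 labelled 10 and 30 min, at -1.43 and -2.87 (adjusted p = 0.0477 and 0.0132), and over all labels, at -1.32 (adjusted p = 0.0488).

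Summed over the 28 small RNAs, the level was between 4.71 and 6.34 CPM in the controls, between 3.71 and 7.31 with CX-5461, between 6.01 and 7.85 with RBI2 labelled 10 and 30 min, and 13.9 and 28.6 with RBI2 labelled 120 min, of which RN7SK made up most. The histone sum was between 83.0 and 107 CPM in the controls, between 87.7 and 108 with CX-5461, between 88.1 and 104 with RBI2 labelled 10 and 30 min, and 114 and 136 with RBI2 labelled 120 min. In both RBI2 libraries labelled 120 min both sums were thus above the rest, though not each gene in them (H4C3 had 3.19 and 2.68 CPM there and 4.19 and 4.71 with CX-5461 labelled 30 min), and replicate 2, which was the higher for RMRP, RPPH1 and the 7SL pair, was also the higher for both sums. With RBI2 labelled 10 and 30 min the sums overlapped those of the other groups, while the 7SL pair and NEAT1-202 were already above all 8 control and CX-5461 libraries. The part of what raised these sums in the members' values at 120 min was not tested.

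**Figure D5:**
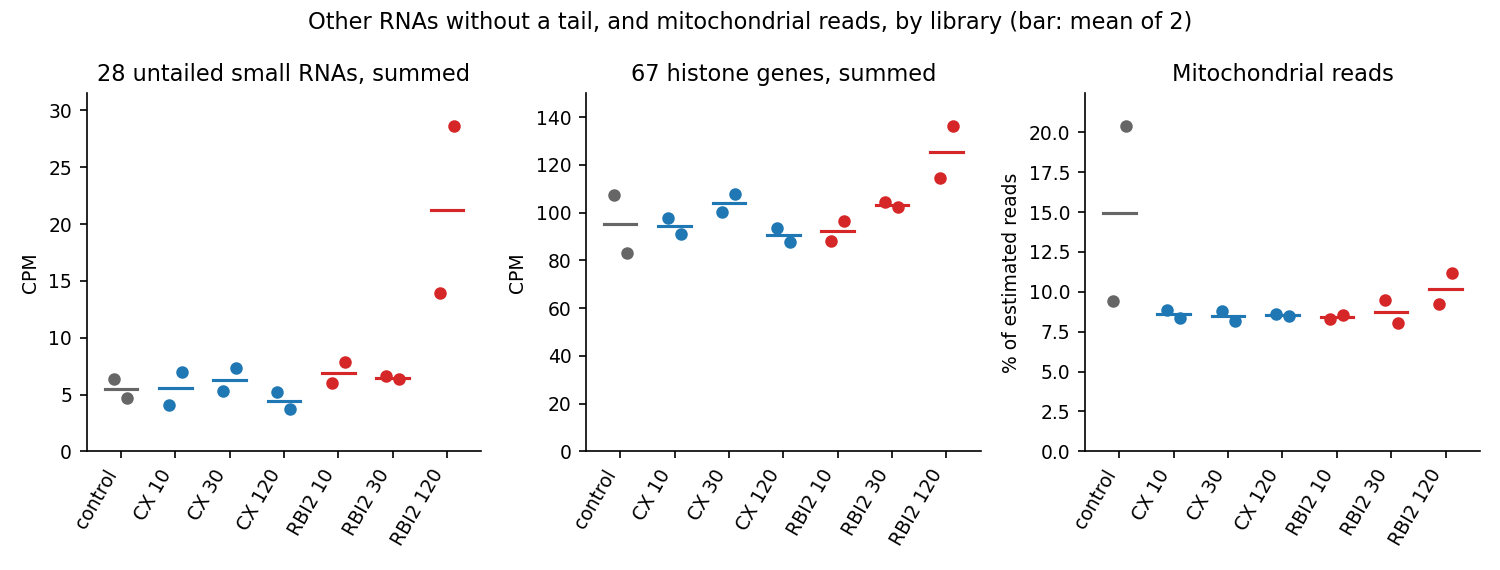
Summed level of 28 small RNAs without a tail (left) and of 67 histone genes (middle), in CPM, and the percentage of reads on mitochondrial genes (right), in each library, with a bar at the mean of 2. RBI2 labelled 120 min is highest in both sums, at 13.9 and 28.6 and at 114 and 136 CPM, and control replicate 2 is highest in mitochondrial reads, at 20.4%.

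Correlations across the 14 libraries are given as a description, since the libraries share groups and preparation. On log2 CPM the 7SL sum had a Pearson r of 0.84 with MALAT1, 0.79 with RPPH1, 0.66 with RMRP and 0.33 with NEAT1. MALAT1 had 0.79 with RPPH1, 0.65 with RMRP and 0.58 with NEAT1, RMRP and RPPH1 had 0.60, and NEAT1 had 0.38 with RMRP and 0.32 with RPPH1. The genes most like the 7SL sum were TNKS1BP1 (r = 0.91), UBN1 (0.91) and CNTROB (0.90). Those most like MALAT1 were NKAIN3, METTL21A and CEP164 (r from 0.91 to 0.92), and those most like NEAT1 were the microRNA host gene MIR17HG (0.94) and the noncoding genes HSD17B1-AS1 (0.94) and SNHG20 (0.93). Those most like RMRP were the histone gene H2AC18, LPIN3 and SPC24 (r from 0.86 to 0.88), and those most like RPPH1 were the noncoding genes ENSG00000279080 and ENSG00000291126 and the gene CNPY4 (r from 0.84 to 0.85). Each is the top 3 of 15426 genes over the same 14 libraries.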

How the data were processed

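The authors removed reads that aligned to ribosomal DNA and quantified the rest with Salmon 1.3.0 on GRCh38, as the methods and the submitters' notes give it (STAR 2.7.6a, SAMtools 1.11 and bedtools 2.29.2 are also named there). The deposited values are the authors' estimated counts of reads, TPM and effective lengths per transcript, as Salmon made them. Of 228754 transcripts, 225662 matched GENCODE 44 identifiers. Estimated counts were summed per gene and rounded. edgeR 4.0.16 (R 4.3.3) was fitted to all 14 libraries and 7 groups with TMM scaling, filterByExpr at a minimum count of 10 and the quasi-likelihood test. RBI2 against CX-5461 over all labels used the 12 treated libraries with the label as a term. The fit to 7 groups was tried on simulated counts, for RBI2 labelled 10 min against the control only. Every gene had the same spread there and the fold limit was not used. The fit over all labels and that of NEAT1-202 were not tried in this way. CPM use TMM library sizes, log2 CPM a prior count of 2. Intervals for a count of 0 cover counting error only. Members are reported in every library. From each partner list, genes that passed were named, at most 4 with the largest change, and the gene with the largest difference where none passed was named after its values were seen. Such a gene of the speckle list and some sequences are not reported here. The members and lists were chosen with earlier results of these data known. DESeq2 1.42.0, other scaling, no filter, a length offset, a replicate block and left-out libraries were alternatives, and those for NEAT1-202 were chosen after seeing the data.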

Additional observations from a re-analysis of the deposited data

How the results depend on the processing

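With 2 libraries a group, most calls at a single label rested on the libraries of that label. Over all labels the calls of RN7SL1, RN7SL2, their sum and NEAT1-202 held without any one library, whereas that of H4C3 did not. Without any one library, the log2 fold changes of RBI2 labelled 120 min against the control ranged from 1.93 to 4.27 for the 7SL sum, 1.77 to 5.09 for RN7SL1, 2.09 to 3.82 for RN7SL2, 2.28 to 9.40 for RMRP and 1.83 to 2.97 for NEAT1-202. Against CX-5461 of that label they ranged from 2.72 to 3.24 for the sum, 2.29 to 3.08 for RN7SL1, 3.11 to 3.41 for RN7SL2, 2.21 to 9.35 for RMRP, 1.25 to 2.64 for RPPH1 and 1.22 to 1.46 for MALAT1, and for NEAT1-202 labelled 10 min from 1.32 to 1.82. RPPH1 over all labels ranged from 0.75 to 1.36, and RPPH1 and MALAT1 with RBI2 labelled 120 min against the control from 0.85 to 2.67 and from 0.71 to 1.01. Fitted values of RMRP against a lone library at 0 depend on the prior count and are no bounds. The count of genes called ranged from 24 to 1335, 5 to 395 and 69 to 170 for RBI2 labelled 120 min against the control, against CX-5461 and over all labels. Against the control it ranged from 7 to 724 and 0 to 1071 for RBI2 labelled 10 and 30 min and from 129 to 1354, 0 to 1143 and 2 to 611 for CX-5461 labelled 10, 30 and 120 min, the highest each time without control replicate 1.

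The direction turned without some library for results that had not passed. These were, against the control, RMRP with RBI2 labelled 10 min (-5.07 to 5.11) and CX-5461 labelled 120 min (-5.01 to 5.15), RPPH1 with RBI2 labelled 30 min (-1.05 to 0.72) and CX-5461 labelled 10, 30 and 120 min (-1.14 to 0.42, -0.36 to 1.19 and -0.96 to 0.62), NEAT1 with RBI2 labelled 30 and 120 min (-0.03 to 0.40 and -0.08 to 0.35) and CX-5461 labelled 30 min (-0.31 to 0.11), and MALAT1 with RBI2 labelled 30 min (-0.000151 to 0.31) and CX-5461 labelled 30 min (-0.28 to 0.02). They were also the 7SL sum with CX-5461 labelled 10, 30 and 120 min (-0.11 to 2.22, -0.28 to 2.04 and -1.05 to 1.30) and NEAT1-202 with the same groups (-0.82 to 0.32, -0.50 to 0.63 and -0.62 to 0.55). RMRP between the compounds labelled 10 min ranged from -6.01 to 0.08.

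An offset for transcript length turned MALAT1 with RBI2 labelled 10 and 30 min against the control (-0.42 and -0.60), NEAT1 with RBI2 labelled 30 and 120 min (-0.01 and -0.12) and RPPH1 with CX-5461 labelled 30 min (-0.03). It ended the calls of RN7SL1 (2.43) and RMRP (4.30) against the control and of RMRP (4.12) against CX-5461, and gave 82 genes for RBI2 labelled 120 min against the control. With only the libraries compared, 0 genes passed there, and the 7SL sum, RN7SL1, RN7SL2, RMRP and NEAT1-202 lost their calls at 2.67, 2.61, 2.70, 4.34 and 2.27. DESeq2 called 167 and 153 genes at 120 min and gave RMRP, at 4.48 and 4.47, no adjusted p. Without the filter on low counts 662, 592 and 474 genes passed, and over all labels RMRP (1.51) and RPPH1 (1.10) passed. So did the 7SL sum with RBI2 labelled 10 and 30 min against the control (1.84 and 1.24), where 355 and 447 genes passed. RPPH1 between the compounds labelled 10 min also passed (1.49), where 398 genes did. By the adjusted p alone MALAT1 (0.74) and NEAT1 (0.41) passed over all labels, with 2772, 2490 and 1352 genes in the 3 comparisons, and by an unadjusted p with the fold limit RPPH1 passed over all labels (1.11), with 563, 566 and 292 genes. The cause of these changes was not tested. The transcript shares by TPM were lower, with medians of 0.249%, 1.01% and 0.324% for NEAT1-202 and 1.38%, 4.96% and 2.57% for MALAT1-202 in control, RBI2 and CX-5461.

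Replicates of the same number did not pair, since the correlations of their differences between 21 pairs of groups ran from -0.18 to 0.18. With a replicate block RMRP lost its calls at 120 min (4.12 and 4.02) and was at -0.10 with RBI2 labelled 10 min against the control. The block left 241, 243 and 121 genes, and changed no other call of a member. Outside the members it ended the call of H4C3 over all labels.

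At most 123 and 113 reads in a library limit RMRP and RPPH1, and 3 libraries held no RMRP read.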
